A study of Mus musculus with 12 samples.

Results

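The subject is a set of 10 genes of innate nucleic acid sensing, followed in MC3T3-E1 cells, a mouse preosteoblast line labelled wild type, through bone differentiation in the absence or presence of interferon beta (IFN), which belongs to the type I interferons. The genes were fixed by name, with earlier results of these data known. Shares of all genes printed beside their counts are therefore no test of the set. The 10 were Ddx58, Ifih1, Dhx58, Mavs, Eif2ak2, Zbp1, Adar, Tlr3, Tmem173 and Tbk1. In the table of 55291 gene symbols 9 of the 10 were found by symbol, and Tmem173 was found under its newer symbol Sting1 through the RefSeq synonyms. All 10 passed the filter on low counts, as did 17289 genes in all.

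Both arms were grown in alpha-MEM with 10% fetal bovine serum, and differentiation started, as day 0, when cells had been confluent for 2 days. The control arm received no IFN, and the IFN arm received 50 mg/L of it from that point on, a dose printed here as the labels state it. Libraries were made at days 0, 14 and 21, and each of the 6 groups has replicate 1 and replicate 2. Exposure of the IFN arm at day 0 is not specified, nor is the origin of the replicates, so p-values measure the spread between these samples, which may be technical. An established line stands for osteoblasts here, with no other cell source.

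Cells detect viral or misplaced nucleic acids with dedicated receptors. RIG-I (gene Ddx58) and MDA5 (Ifih1) bind double-stranded RNA in the cytosol and signal through the mitochondrial adaptor MAVS. LGP2 (Dhx58) belongs to the same helicase family, lacks their signalling domains and tunes their activity. TLR3 (Tlr3) detects double-stranded RNA in endosomes, STING (Sting1) relays the signal of the DNA sensor cGAS, and the kinase TBK1 (Tbk1) acts below MAVS, STING and TLR3 to activate interferon genes. PKR (Eif2ak2) halts translation when it binds double-stranded RNA, ZBP1 (Zbp1) binds left-handed nucleic acids and can start cell death, and ADAR1 (Adar) edits double-stranded RNA so that self RNA is not detected. Several of these genes are themselves interferon-stimulated in many tissues.

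Start-site sequences of 4 members hold letters known as binding sites of interferon-activated factors, and they are shown because these members are among those that rose with IFN. RefSeq promoters (GRCm38.p6, 250 bases before to 50 after each start) were matched by symbol for 7 of the 9 members searched, with 3 start sites for Adar. Dhx58 and Zbp1, the members with the highest fold at day 14, had no promoter matched. The search, on both strands, was for the core of the interferon-stimulated response element (ISRE), written as GAAA, any 2 bases and GAAA. The core of the gamma-activated site (GAS), TTCNNNGAA, was searched too. The ISRE core was found in 3.44% and the GAS core in 8.3% of all 32851 RefSeq promoters of this length. By gene, counting a match at any start site, the shares were 3.99% and 9.55%. The windows of 30 bases below run 5′ to 3′ on the strand of the gene, and capitals mark the match.
Ddx58, chr4:40239804-40239833, minus strand, ISRE core on the opposite strand: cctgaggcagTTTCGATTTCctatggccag
Ifih1, chr2:62646206-62646235, minus strand, ISRE core: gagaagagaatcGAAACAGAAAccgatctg
Eif2ak2, chr17:78882535-78882564, minus strand, ISRE core: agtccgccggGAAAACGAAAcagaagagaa
Eif2ak2, chr17:78882731-78882760, minus strand, GAS core: ctgcagagctTTCCCAGAAtggaagccagg
Adar, start site 3, chr3:89730730-89730759, plus strand, GAS core: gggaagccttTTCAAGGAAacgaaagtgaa
The ISRE core matches begin at base 3, 33 and 19 of Ddx58, Ifih1 and Eif2ak2, counting the start as base 1. A shorter string, GAAANNGAA, was searched after the sequences had been seen and lies within the longer one. It was found in 8.56% of all promoters and in those of Ddx58, Ifih1 and Eif2ak2 and start site 3 of Adar. None of the 3 strings was found in the windows of Tlr3, which also rose with IFN, or of Mavs and Tbk1. This says only that these letters are not there. A match is a description of the sequence, not a measured binding site, and its link to the rise with IFN was not tested.

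CPM below are counts scaled to a common library size (TMM). Libraries held 29772425 to 38908453 counts, and 20974 to 23633 genes had at least 1 count. Spread was wider in the control arm, with a biological coefficient of variation of 0.392 over the 6 control libraries and 0.0639 over the 6 IFN libraries. Hspa5, an endoplasmic reticulum chaperone, stood at 25678 CPM in replicate 2 of control day 21 and did not exceed 1828 CPM elsewhere. The ribosomal RNA gene CT010467.1 was highest in control day 0 replicate 1 (21084 CPM, at most 8633 elsewhere). Of the osteoblast markers, Runx2 (71.9 to 126 CPM) and Sparc (890.0 to 2261 CPM) were present throughout, and Ibsp had 0 counts in 3 libraries. Bglap (0.292 to 6.89 CPM) and Alpl (0.554 to 29.99 CPM) were low. Blood cell markers were low, with Ptprc at most 0.123 CPM and Adgre1 and Cd3e at 0 counts in 9 and 11 of 12 libraries. The 9 blood cell markers together summed to 13.8 to 15.0 CPM in IFN libraries at days 14 and 21 and to 15.1 to 23.7 CPM in control libraries, mostly from Lyz2 and Cd68. The 7 osteoblast markers summed to 2187 to 2371 CPM with IFN and 6343 to 12109 CPM in control at these days, with Col1a1 (1083 to 9729 CPM over the 12 libraries) and Sparc by far the most abundant of the 7, and their part in the results below was not tested. In these bulk samples fewer responding cells and less RNA per cell cannot be told apart.

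The first comparison asked how IFN changed the sensors and adaptors at day 14. In edgeR's quasi-likelihood test with Benjamini-Hochberg adjustment over all genes (called means adjusted p below 0.05), 7 of the 10 genes rose and 0 fell, while 1.3% of all tested genes were called higher and 0.995% lower. The 7 were the 3 cytosolic helicases Ddx58, Ifih1 and Dhx58, the effectors Eif2ak2 and Zbp1, the editing enzyme gene Adar and the endosomal receptor Tlr3. The adaptors Mavs and Sting1 and the kinase Tbk1 did not pass. The median log2 fold change of the 10 was 2.23, beside -0.0075 over all tested genes.

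**Figure D1:**
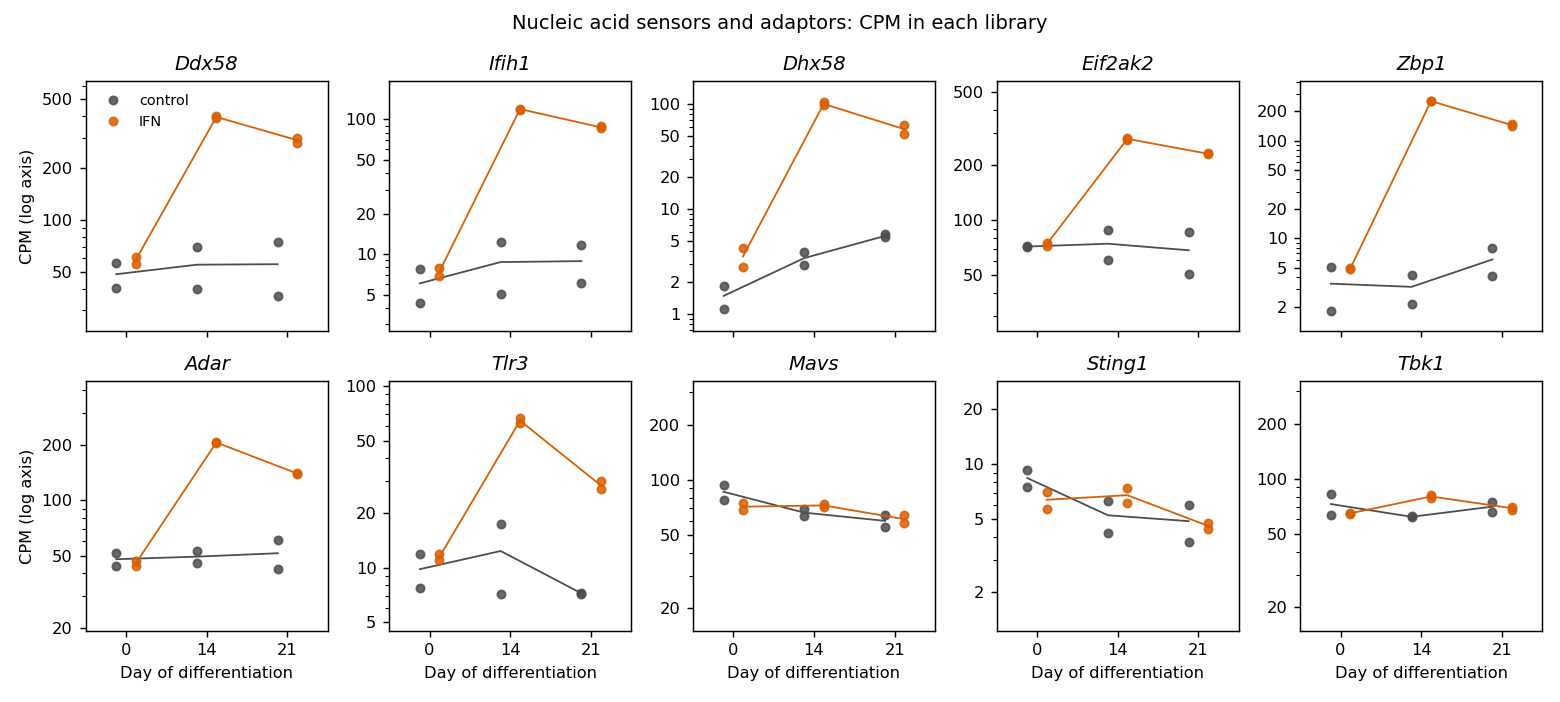
Counts scaled to library size (CPM, log axis) of each of the 10 genes against day of differentiation (days spaced evenly, not to scale), with each library a point and lines through the means of the 2 libraries of a group (grey control, orange IFN). The IFN points of the first 7 genes lie above the control points at days 14 and 21, and those of Mavs, Sting1 and Tbk1 stay near them.

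Among the helicases, Ddx58 (mm10 chromosome 4, 40203773 to 40239828), the gene with the TTTCGATTTC match, stood at 40.0 and 70.3 CPM in the control libraries and 392 and 399.5 CPM with IFN at day 14. The groups were far apart, a log2 fold change of 2.84 ± 0.35 (SE, adjusted p = 0.00193), or 7.17-fold. Ifih1 (chromosome 2, 62595798 to 62646255) was at 5.07 and 12.4 CPM in control and 121 and 118 CPM with IFN. Its log2 fold change was 3.78 ± 0.45 (adjusted p = 0.00162), or 13.7-fold, and the control replicates differed 2.44-fold. Without the higher one, control day 14 replicate 2, the Ifih1 value was 4.56. Dhx58 (chromosome 11, 100694884 to 100704271), the regulator of the other helicases, was at 2.90 and 3.92 CPM in control and 103 and 96.8 CPM with IFN. This was 29.3-fold (log2 4.87 ± 0.31, adjusted p = 5.14e-05), the smallest adjusted p of the 10 genes, with all IFN values above all control values. Its antisense neighbour Dhx58os, which shares exon sequence with it, had at most 26 counts in a library.

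The effectors that act on RNA or start cell death rose as well. Zbp1 (chromosome 2, 173206612 to 173218923) had the highest fold of the 10, from 2.14 and 4.25 CPM in control to 254 and 252 CPM with IFN (log2 6.31 ± 0.53, adjusted p = 0.000302), or 79.2-fold. By fold it ranked 31 among all tested genes. Eif2ak2 (chromosome 17, 78852564 to 78882573), whose start site holds both motifs, was already at 60.2 and 88.4 CPM in control and reached 274 and 281 CPM with IFN. Its rise was 3.73-fold (log2 1.90 ± 0.25, adjusted p = 0.00285).

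Adar (chromosome 3, 89715022 to 89753446) was at 45.5 and 53.1 CPM in control, and both IFN libraries stood at 207 CPM. This was 4.20-fold (log2 2.07 ± 0.20, adjusted p = 0.000479). The count table does not separate the long interferon-inducible form of ADAR1 from the constitutive form, so the rise is that of the whole gene. Exons of Adar overlap those of Chrnb2 on the other strand, which stayed at or below 5.09 CPM. The use of strand in counting is not given in the sources used here, so reads of such pairs cannot be told apart.

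The endosomal receptor gene Tlr3 (chromosome 8, 45395665 to 45411080) was at 7.20 and 17.5 CPM in control and 62.5 and 66.7 CPM with IFN. It rose 5.23-fold (log2 2.39 ± 0.36, adjusted p = 0.00601), although the control replicates differed 2.43-fold. Without the higher control library, replicate 2, the log2 value was 3.17. The call ended without IFN day 14 replicate 2 (adjusted p = 0.0505) and with only the groups compared in the fit (0.0507).

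The adaptors and the kinase did not pass at day 14. Mavs (chromosome 2, 131234063 to 131248025) was at 63.3 and 69.2 CPM in control and 71.4 and 73.7 CPM with IFN at day 14, narrowly without overlap, with a log2 fold change of 0.13 and a 95% interval of -0.22 to 0.49 (edgeR adjusted p = 0.792). Sting1 (chromosome 18, 35733679 to 35740554) was the least abundant of the 10 with IFN, at 4.24 and 6.30 CPM in control and 6.13 and 7.43 CPM with IFN. These values overlapped (log2 0.36, interval -0.34 to 1.07, adjusted p = 0.687). Tbk1 (chromosome 10, 121546455 to 121586787) was at 62.5 and 61.6 CPM in control and 81.2 and 79.0 CPM with IFN. Both IFN values lay above both control values, as they did for 28.6% of all genes, and the difference was 1.29-fold (log2 0.37, interval 0.0152 to 0.72, adjusted p = 0.338). With both outlying control libraries removed (replicate 1 of day 0, replicate 2 of day 21), Tbk1 passed (adjusted p = 0.0152). For all 3 genes the upper limit of the interval lies below the log2 fold change of Eif2ak2, the lowest of the 7 called.

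**Figure D2:**
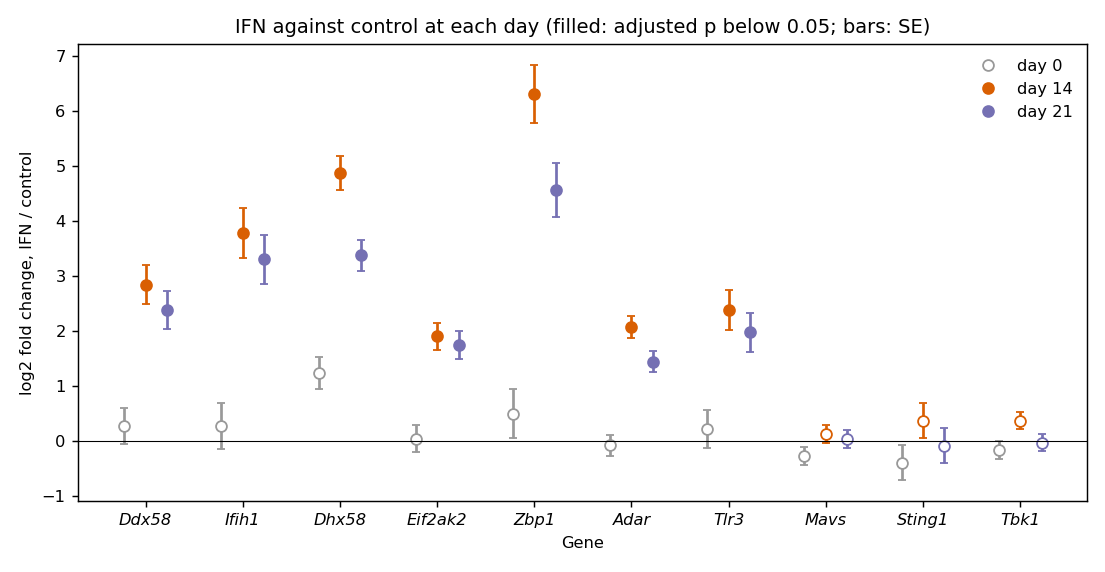
Log2 fold change of IFN over control for each gene at day 0 (grey), day 14 (orange) and day 21 (purple), with bars for the SE and filled points where the adjusted p was below 0.05. The 7 called genes lie between 1.44 and 6.31 at days 14 and 21, and Mavs, Sting1 and Tbk1 between -0.09 and 0.37.

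At day 21 the same 7 genes were called higher with IFN and 0 lower, where 0.839% of all genes were called higher and 0.156% lower. Zbp1 stood at 8.05 and 4.11 CPM in control and 140.0 and 148 CPM with IFN, 23.6-fold (log2 4.56 ± 0.49, adjusted p = 0.00202). Dhx58 was at 5.72 and 5.37 CPM against 51.8 and 63.1 CPM, 10.4-fold (log2 3.37 ± 0.29, adjusted p = 5e-04). The control replicates were close for Dhx58 and apart for Zbp1. Without control day 21 replicate 1, the Zbp1 value was 5.15.

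Ddx58 and Ifih1 kept a wide gap between arms at day 21. Ddx58 was at 74.5 and 36.6 CPM in control and 281 and 299.9 CPM with IFN (log2 2.39 ± 0.35, adjusted p = 0.00822). Ifih1 was at 6.07 and 11.7 CPM in control and 89.1 and 85.8 CPM with IFN (log2 3.31 ± 0.44, adjusted p = 0.00523). The control replicates were ordered in opposite ways for the 2 helicase genes: replicate 1 was higher for Ddx58 and replicate 2 for Ifih1. Replicate 2 is the library with high Hspa5, and its part in these values was not tested. Without control day 21 replicate 1, Ddx58 rose by 3.01.

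Eif2ak2, Adar and Tlr3 rose by smaller amounts at day 21. Eif2ak2 was at 86.1 and 50.8 CPM in control and 228 and 232 CPM with IFN (log2 1.75 ± 0.25, adjusted p = 0.00729). Adar was at 61.0 and 42.0 CPM in control and 139.8 and 140.5 CPM with IFN (log2 1.44 ± 0.19, adjusted p = 0.00499). Tlr3 was at 7.26 and 7.18 CPM against 27.0 and 29.8 CPM (log2 1.98 ± 0.36, adjusted p = 0.0302). For all 7 called genes both IFN values lay above both control values, as for 20.7% of all genes. The Tlr3 call ended with limma voom (adjusted p = 0.191) and without both outlying control libraries (0.0787). When libraries were left out 1 at a time, Tlr3 was called in 5 of 12 fits. Its call ended without replicate 2 of control day 21 (adjusted p = 0.11) and without any 1 of the 6 IFN libraries (0.0552 to 0.189). The calls of Eif2ak2 and Adar ended without IFN day 21 replicate 1 (adjusted p = 0.0543 and 0.05) or replicate 2 (0.0592 and 0.053), and that of Ddx58 without replicate 2 (0.0545). In these fits 4 and 3 of the 10 genes were called. With only the 4 day 21 libraries in the fit, Dhx58 alone of the 10 was called (adjusted p = 0.04).

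The adaptors gave values near 0 at day 21. Mavs was at 64.3 and 55.2 CPM in control and 57.9 and 64.1 CPM with IFN (log2 0.03, 95% interval -0.32 to 0.39). Sting1 was at 6.01 and 3.78 CPM against 4.78 and 4.44 CPM (log2 -0.09, interval -0.80 to 0.62), and Tbk1 at 66.3 and 74.8 CPM against 70.6 and 67.7 CPM (log2 -0.03, interval -0.38 to 0.32). All 3 overlapped between arms, with edgeR adjusted p from 0.939 to 0.962. The intervals allow changes of either sign, so the values do not show that the arms were equal.

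Before differentiation no member passed the test between the arms. At day 0, edgeR called 0 of the 10 genes in either direction (1 at an unadjusted p below 0.05, 0 with DESeq2 and 0 with limma voom), beside 0.00578% of all genes. Dhx58 was the 1 gene with a low unadjusted p, at 1.11 and 1.86 CPM in control and 4.23 and 2.82 CPM in the IFN arm (log2 1.23 ± 0.29, adjusted p = 0.997). Both of its IFN arm values lay above both control values, as for 17.5% of all genes. The log2 fold changes of the other members lay between -0.39 (Sting1) and 0.50 (Zbp1). Zbp1 was at 1.82 and 5.06 CPM in control and 4.99 and 4.82 CPM in the IFN arm, so the IFN arm fell inside the control range.

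The other induced genes overlapped between the arms at day 0. Ddx58 was at 40.4 and 56.8 CPM in control and 61.2 and 55.9 CPM in the IFN arm, and Eif2ak2 at 71.0 and 72.5 against 75.5 and 71.9 CPM. Adar was at 51.6 and 43.9 against 46.7 and 43.6 CPM. The same held for Ifih1 (4.31 and 7.81 against 7.83 and 6.92 CPM) and Tlr3 (7.73 and 11.9 against 11.8 and 11.0 CPM). Mavs (94.2 and 78.1 against 74.5 and 68.3 CPM) and Sting1 (9.30 and 7.53 against 5.71 and 7.09 CPM) were lower in both libraries of the IFN arm, as were 18.7% of all genes, and Tbk1 overlapped (82.2 and 63.5 against 65.2 and 64.4 CPM).

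Changes with time were tested in each arm. Within the IFN arm, 7 of the 10 genes rose between day 0 and day 14 and 0 fell, where 5.18% of all genes were called higher and 5.56% lower. They were the same 7 that rose against control at day 14, and the comparisons share the IFN day 14 libraries. Log2 changes ran from 1.91 ± 0.25 for Eif2ak2 (adjusted p = 0.00112) to 5.69 ± 0.52 for Zbp1 (adjusted p = 0.00017). Dhx58 rose by 4.83 and Ifih1 by 4.02, and Ddx58, Tlr3 and Adar by 2.76, 2.50 and 2.20. Mavs (0.02), Sting1 (0.08) and Tbk1 (0.31) did not pass. Tbk1 was called in the edgeR fit of the 4 libraries compared (adjusted p = 5.71e-06) and in limma voom with library weights (0.00233). Large shares of all genes were called higher there too, 4712 of 15603 and 4452 of 17289. Without both outlying control libraries its log2 value was 0.31.

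Within the control arm, edgeR called 0 of the 10 genes between day 0 and day 14 (2 at an unadjusted p below 0.05), where 2.38% of all genes were called in either direction. DESeq2 called 1, Dhx58 (adjusted p = 0.00611), and limma voom 0. Dhx58 went from 1.11 and 1.86 CPM at day 0 to 2.90 and 3.92 CPM at day 14 (log2 1.18 ± 0.29, adjusted p = 0.0695) and 5.72 and 5.37 CPM at day 21. Of the 10, only Dhx58 had control values that did not overlap between any of the 3 days, and 21.4% and 17.8% of all genes were higher without overlap in these steps. edgeR called Dhx58 in the first step without control day 0 replicate 2 (log2 1.62, adjusted p = 0.0454) and without control day 21 replicate 1 (0.0302) or replicate 2 (0.0287). Mavs gave the other low unadjusted p, with log2 -0.38 ± 0.16 (adjusted p = 0.271). From day 14 to day 21, edgeR called 0 (1 at an unadjusted p below 0.05, again Dhx58, 0 with DESeq2 and 0 with limma voom), beside 0.0289% of all genes.

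The change in the IFN effect itself was tested as the difference of differences. Between day 0 and day 14 the IFN effect grew for 6 of the 10 genes (0.434% of all genes were called in that direction): Zbp1 by 5.81 ± 0.66 on the log2 scale (adjusted p = 0.00377), Dhx58 by 3.64 ± 0.41 (0.00371), Ifih1 by 3.50 ± 0.60 (0.0331), Ddx58 by 2.57 ± 0.48 (0.0458), Adar by 2.15 ± 0.27 (0.0079) and Eif2ak2 by 1.86 ± 0.35 (0.0472). The value for Tlr3 was 2.17 ± 0.50 (adjusted p = 0.115), and Tlr3 was called with DESeq2 (0.0026), with limma voom (0.00688), without the low-count filter (1.3e-05) and without control day 14 replicate 2 (log2 2.95, 0.00756). With libraries removed 1 at a time, Ddx58, Eif2ak2 and Ifih1 were called in 3, 4 and 5 of 12 fits. Removal of control day 0 replicate 1 ended the calls of Ddx58 (adjusted p = 0.0792) and Eif2ak2 (0.135), and removal of its replicate 2 that of Ddx58 (0.0577). The Zbp1 value was 4.88 without control day 0 replicate 2, and the Ifih1 value 4.28 without control day 14 replicate 2. Dhx58 alone was called without IFN day 0 replicate 1 or replicate 2. Without either IFN day 14 library 2 genes were called, Zbp1 and Dhx58, and without replicate 1 of control day 14 or either IFN day 21 library 3 were called, with Adar added.

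Between day 14 and day 21 the members were lower in the IFN arm, every one of the 10 genes having both day 21 values below both day 14 values, as did 29.6% of all genes. Tlr3 went from 62.5 and 66.7 CPM to 27.0 and 29.8 CPM, to 44.0% of its day 14 mean. Zbp1 stood at 56.9% and Dhx58 at 57.5% of the day 14 mean. Adar was at 67.7% and Sting1 at 68.0%, Ifih1 at 73.2% and Ddx58 at 73.4%, and Eif2ak2, Mavs and Tbk1 at 82.9%, 84.1% and 86.3%.

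Whether these lower values pass depends on which libraries set the spread. With all 12 libraries, edgeR called 0 of the 10 genes (3 at an unadjusted p below 0.05) and 0% of all genes. DESeq2 called 0 of the 10, beside 114 of all genes in either direction. With library weights, limma voom called 7 of the 10 lower, beside 1081 of 17289 genes called lower. With only the 4 IFN libraries of these days, edgeR called all 10 lower, where 13.3% of all genes were called lower. In that fit the log2 changes were -1.19 ± 0.08 for Tlr3 (adjusted p = 8.38e-11), -0.82 ± 0.05 for Zbp1 (2.42e-11), -0.81 ± 0.08 for Dhx58 (8.79e-08) and -0.57 ± 0.05 for Adar (9.41e-09). They were smaller for Ddx58 (-0.45 ± 0.05), Ifih1 (-0.46 ± 0.06), Eif2ak2 (-0.28 ± 0.05), Mavs (-0.26 ± 0.07, adjusted p = 0.00686) and Tbk1 (-0.22 ± 0.06, adjusted p = 0.0126). Sting1 gave -0.56 ± 0.20 (adjusted p = 0.0393). The median of the 10 was -0.51, beside -0.0058 over all genes in that fit.

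**Figure D3:**
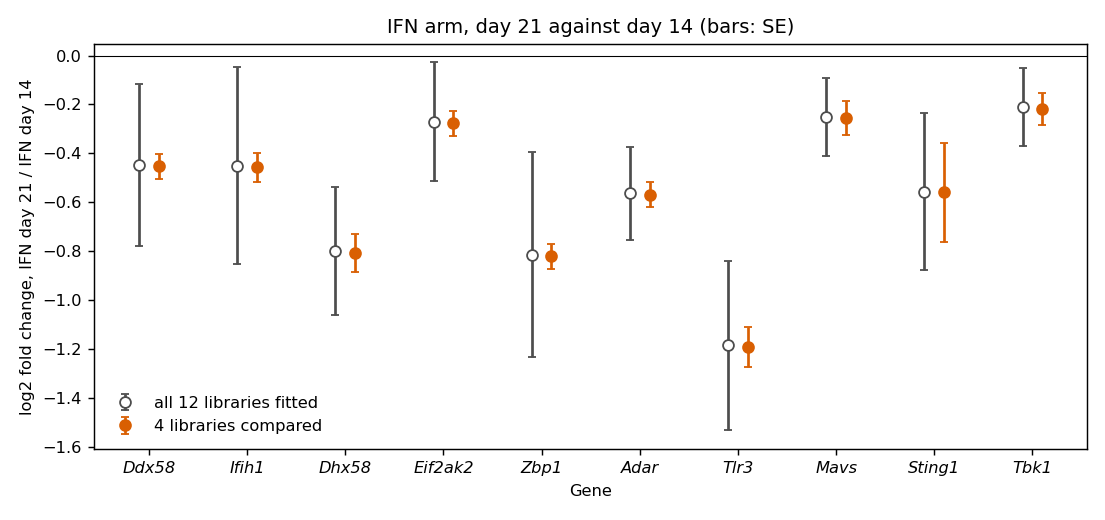
Log2 fold change of IFN day 21 over IFN day 14 for each gene, with bars for the SE, from the fit of all 12 libraries (open grey points) and from the fit of the 4 libraries compared (filled orange points). Values were close in both fits while the bars are shorter in the second, and Tlr3 lies lowest at -1.19.

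The IFN effect against control was not shown to shrink from day 14 to day 21. In edgeR 0 of the 10 genes were called for that difference (3 at an unadjusted p below 0.05, 0 with DESeq2 and 0 with limma voom) and 0% of all genes. Without control day 21 replicate 1, 2584 genes were called for it, and 0 genes in each of the other 11 fits with 1 library removed. The values were -1.75 ± 0.62 for Zbp1, -1.50 ± 0.38 for Dhx58 and -0.63 ± 0.27 for Adar, each with an edgeR adjusted p of 0.652, and between -0.47 and -0.10 for the other 7. Dhx58 was called without control day 21 replicate 1 (log2 -1.42, adjusted p = 0.0375), and Adar without both outlying control libraries (log2 -0.87, adjusted p = 0.0353).

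To compare levels between genes, CPM was divided by the merged length of all annotated exons of a gene in kb (GENCODE M21). The expressed forms may be shorter, and the spread between replicates does not measure that error. In control at day 14 the order began with Mavs (19.8 CPM per kb), Tbk1 (15.9) and Eif2ak2 (14.5), and the replicates of Tbk1 and Eif2ak2 overlapped. Then came Ddx58 (7.83) and Adar (6.07), which overlapped, and Tlr3 (2.37) and Sting1 (1.92), which also overlapped. Ifih1 (1.07), Dhx58 (1.04) and Zbp1 (0.904) were lowest and could not be separated. Both control libraries of Mavs stood above those of every other member at that day.

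With IFN at day 14 the order of these levels per length was different. Zbp1, among the lowest in control at that day, was highest at 71.7 CPM per kb. It was followed by Ddx58 (56.2), Eif2ak2 (54.3), Dhx58 (30.6), Adar (25.5), Mavs (21.7), Tbk1 (20.5), Ifih1 (14.6), Tlr3 (12.4) and Sting1 (2.47). No neighbours in this order overlapped between replicates, against 5 of 9 neighbour pairs in control at day 14. In the other groups 4 (IFN day 21), 2 (IFN day 0), 3 (control day 0) and 7 (control day 21) of the 9 pairs overlapped. The part of the wider spread of the control arm in these counts was not tested. The level of Mavs relative to Ddx58 per length was 3.33 and 2.07 in the control libraries and 0.384 and 0.389 with IFN. At day 21 with IFN, Eif2ak2 (45.0) was highest, Ddx58 (41.2) and Zbp1 (40.8) overlapped, and Mavs (18.2), Tbk1 (17.7), Dhx58 (17.6) and Adar (17.3) formed a run of overlapping neighbours. Ifih1 (10.7), Tlr3 (5.46) and Sting1 (1.68) stood below them.

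**Figure D4:**
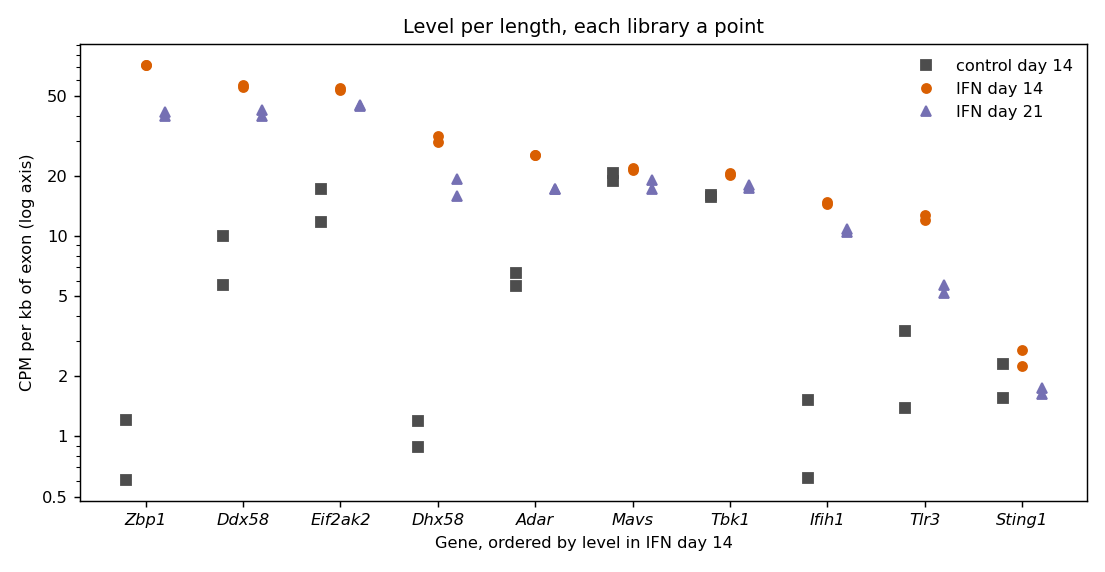
CPM per kb of exon (log axis) for each gene, ordered by the level in IFN day 14, with each library a point (grey squares control day 14, orange circles IFN day 14, purple triangles IFN day 21). Zbp1 is among the lowest in control day 14, where it overlaps Dhx58 and Ifih1, and highest in IFN day 14. In IFN day 21 it lies below Eif2ak2 and overlaps Ddx58. Mavs, Tbk1 and Sting1 have similar levels in the 3 groups.

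The proportions of the cytosolic helicases to each other differed between the arms at day 14. Dhx58 per Ddx58, per length, was 0.156 and 0.120 in control at day 14 and 0.567 and 0.522 with IFN. Ifih1 per Ddx58 was 0.109 and 0.152 in control and 0.266 and 0.256 with IFN. Both ratios were higher with IFN in every library of that day. At day 21 Dhx58 per Ddx58 was 0.165 and 0.316 in control and 0.397 and 0.454 with IFN, again without overlap. The control values of Ifih1 per Ddx58 (0.070 and 0.275) at day 21 spanned those with IFN (0.274 and 0.247).

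The other genes of the pathway were counted from 10 lists by role, 90 genes of which 83 passed the filter. These lists too were chosen with earlier results of these data known. At day 14 with IFN 21 of the 83 rose and 0 fell, beside 1.3% of all genes called higher. At day 21 13 rose and 0 fell, beside 0.839%. Their median log2 fold change was 0.33 at day 14 and 0.15 at day 21. Among 12 tested regulators of the RIG-I-like receptors 6 rose at day 14, with Trim25, the ubiquitin ligase that acts on RIG-I, at 61.4 ± 0.975 CPM in control and 355.8 ± 5.60 CPM with IFN (SD, n = 2; log2 2.53 ± 0.17 (SE), adjusted p = 6.03e-05). Isg15, a ubiquitin-like modifier, rose by 4.96 and the ubiquitin ligase gene Trim21 by 2.19. Isg15 stood at 6.01 without control day 14 replicate 2 and at 4.35 without replicate 1, where the Trim21 call ended (adjusted p = 0.0623). At day 21, 5 of these 12 rose, while DESeq2 called 6 and limma voom 3.

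In the 2-5A pathway, named for the oligoadenylates that its synthetases make on double-stranded RNA, 6 of 9 genes rose at day 14 and 5 at day 21. The day 21 count depended on the tool, with 8 of the 9 called by DESeq2 and 3 by limma voom. Oas3 (log2 4.58 ± 0.58), Oas1b (4.20 ± 0.55) and Oasl2 (5.88 ± 0.83) had the smallest adjusted p at day 14, and reads of these close copies may be shared. Without control day 14 replicate 2 the values were 5.83 for Oas3, 5.32 for Oas1b and 7.68 for Oasl2, and without replicate 1 they were 3.93, 3.58 and 5.10. Of 16 signalling genes, the transcription factor genes Irf7 (log2 7.21) and Irf5 (1.36) and the TBK1 adaptor Azi2 (0.73 ± 0.16, adjusted p = 0.0416) rose at day 14, and Irf7 alone at day 21. With libraries removed 1 at a time, Irf5 was called at day 14 in 5 of 12 fits (adjusted p up to 0.238) and Azi2 in 4 of 12 (up to 0.402), and Irf7 reached 7.85 without control day 14 replicate 2. Irf3, the factor that TBK1 phosphorylates, had a log2 fold change of 0.00 ± 0.18 at day 14 (37.1 ± 5.57 CPM in control and 37.1 ± 1.23 CPM with IFN).

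The DNA sensor, further RNA sensor and cell death lists gave 1 call each at day 14, where 1.3% of all genes were called higher. Of 5 DNA sensor genes, Ifi204, of the DNA-binding Ifi200 family, rose at day 14 (log2 3.38 ± 0.69, adjusted p = 0.0312; called in 4 of 12 fits with 1 library removed, up to 0.257) and 0 were called at day 21 (2 at an unadjusted p below 0.05, 0 with DESeq2 and with limma voom). Cgas, which makes the ligand of STING, was at 10.5 ± 2.93 CPM in control and 19.8 ± 0.0285 CPM with IFN at day 14 (log2 0.92 ± 0.28, adjusted p = 0.143). Of 6 further RNA helicases and sensors, Ddx60, a helicase linked to RIG-I, rose at both days (log2 4.75 at day 14 and 4.92 at day 21). At day 14 its call was lost with replicate 1 of that control group removed (adjusted p = 0.0605) and at day 21 with replicate 2 of that day's control removed (0.104). The day 14 value of Ddx60 was 5.59 with replicate 2 of control day 14 removed. Of 4 genes in the ZBP1 cell death list, Mlkl, the necroptosis effector, rose at day 14 (1.34 ± 0.24, adjusted p = 0.0165; called in 9 of 12 fits with 1 library removed, up to 0.148), and 0 were called at day 21 (1 unadjusted, 0 with DESeq2 and with limma voom). Ripk3, the kinase that links ZBP1 to MLKL, had a value of -0.43 ± 0.32 (adjusted p = 0.609).

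Of 9 clearance and editing genes, the RNA exonuclease gene Pnpt1 (log2 1.69), the DNA exonuclease gene Trex1 (1.91) and Samhd1 (0.92), which depletes nucleotides, rose at day 14, and Samhd1 alone at day 21 (0.96). Samhd1 was called in 4 of 12 fits with 1 library removed at day 14 (adjusted p up to 0.228) and in 6 of 12 at day 21 (up to 0.266), and Trex1 was not called with replicate 1 of control day 14 removed (0.06). edgeR called 0 of 9 PKR pathway genes at day 14 (1 at an unadjusted p below 0.05, 0 with DESeq2 and with limma voom) and 0 at day 21 (3 unadjusted, 2 with DESeq2, 0 with limma voom). It called 0 of 8 STING trafficking genes at day 14 (1 unadjusted, 1 with DESeq2 and with limma voom) and 0 at day 21 (6 unadjusted, 1 with DESeq2, 0 with limma voom). For the 5 Toll-like receptor adaptor genes it called 0 at day 14 (1 unadjusted, 1 with DESeq2 and with limma voom) and 0 at day 21 (2 unadjusted, 1 with DESeq2, 0 with limma voom). These counts take both directions together. Over all 17289 genes edgeR called 396 at day 14 and 172 at day 21, so 0 calls in lists this short is near that share. At day 21 the median log2 fold changes were -0.38 (PKR), -0.72 (STING trafficking) and -0.25 (Toll-like receptor adaptors), so most of each list lay lower with IFN. The part of the control day 21 library with high Hspa5 in these values was not tested. Ticam1, the adaptor of TLR3, had a log2 value of -0.26 ± 0.44 at day 14. The count of pathway genes called at day 14 was 9 without replicate 1 of control day 14 and 12 without either IFN day 14 library. Without replicate 1 of control day 21, the library with high Hspa5 was the only control of that day. Among the fits with 1 library removed, calls over all genes at day 21 were most numerous in that fit. More calls there were thus not limited to the pathway. The day 21 count of pathway genes called became larger in that fit, and smaller without replicate 2 of control day 21. It was 8 without IFN day 0 replicate 1, 6 without either IFN day 14 library and 3 without either IFN day 21 library.

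**Figure D5:**
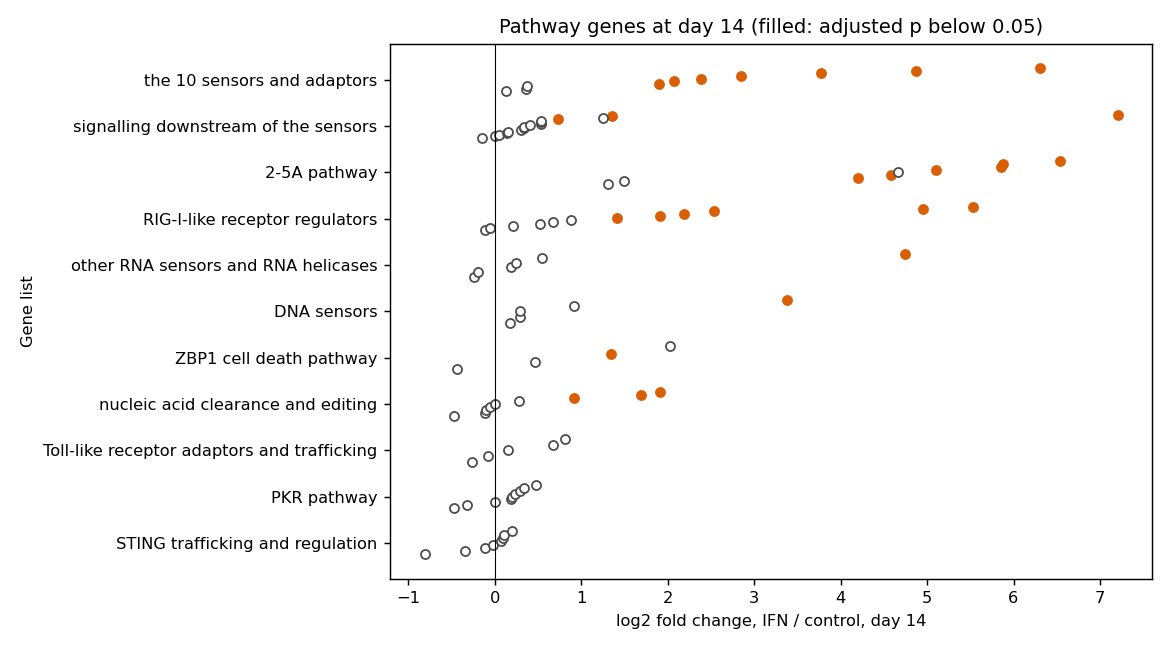
Log2 fold change of IFN over control at day 14 for the 10 sensors and adaptors (top row) and for the tested genes of the 10 pathway lists, with 1 point per gene and filled orange points where the adjusted p was below 0.05. The called genes lie to the right of 0, and the PKR, STING trafficking and Toll-like receptor adaptor lists hold open points only.

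Likeness of pattern was measured as Pearson's r of log2 CPM over the 12 libraries, given as a description because the libraries share arms and days. The 21 pairs among the 7 called genes had r from 0.89 to 0.995. These genes were picked by their rise with IFN in the same libraries. High r among them, and lower r with the uncalled genes, is partly set by that choice. Most like Ddx58 were Irgm2 (r = 0.996), Eif2ak2 (0.995) and Parp14 (0.994), and most like Zbp1 were Igtp (0.995), Apol9a (0.992) and Mx1 (0.991). Dhx58 was nearest to Rsad2 (0.991), Slfn8 (0.990) and Stat2 (0.989), and Ifih1 to Oas1h (0.993), Ifi203 (0.992) and Ifi35 (0.991). Eif2ak2 was nearest to Ddx58, Trim34a (0.994) and Lgals3bp (0.994), Adar to Daxx (0.994), Slfn1 (0.987) and Gbp3 (0.986), and Tlr3 to Parp11 (0.978), Batf2 (0.973) and Herc6 (0.972).

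The adaptors had other nearest genes. Mavs was nearest to Hirip3 (r = 0.959), Zfp93 (0.957) and Cdc26 (0.953), Sting1 to Zfp111 (0.924), Zfp428 (0.922) and Tbc1d22b (0.919), and Tbk1 to Slf2 (0.972), Hsf1 (0.953) and Zbtb21 (0.917). Mavs and Sting1 had r = 0.88 with each other and r from -0.33 to 0.10 with each of the 7 called genes. Tbk1 had r between 0.40 and 0.54 with the 7.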

How the data were processed

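RNA was sequenced from 12 MC3T3-E1 libraries. The submitters' processing notes list HISAT2, SAMtools, featureCounts and mm10; versions, annotation and strand setting are not given in the sources used here. The deposited table holds the authors' raw counts per gene symbol and library, not normalized. Groups come from the sample titles.

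Analysis used R 4.3.3 and edgeR 4.0.16. Genes were kept by filterByExpr with the 6 groups (17289 genes), scaled by TMM, and fitted with a mean for each group by the robust quasi-likelihood method; the design leaves 6 residual degrees of freedom. Adjustment was by Benjamini-Hochberg over all genes tested (threshold 0.05). CPM uses TMM-scaled library sizes, and log2 CPM a prior count of 2. Intervals are 95% limits of the log2 fold change. Positions and exon lengths are from GENCODE M21 (mm10), where Sting1 is listed as Tmem173.

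The members and lists were chosen with earlier results of these data known. All 10 members are described; other pathway genes are named, at most 3 a list by smallest adjusted p, where called. Irf3, Cgas, Ripk3, Ticam1, Hspa5, CT010467.1, Bnip3 and the genes below the filter were named after their values were seen. The alternatives were scaling by RLE or by library size only, DESeq2 1.42.0, no filter, a filter of 1 CPM in 2 libraries, fitting only the groups compared, a replicate block, limma 3.58.1 voom with library weights, each library removed in turn, and removal of both outlying control libraries (control day 0 replicate 1, control day 21 replicate 2). Control day 14 replicate 1, highest in Bnip3 (626 CPM, at most 143 elsewhere), was removed only in its turn. Running them for the other pathway genes was added after the data were seen. A group reduced to 1 library is assumed to vary like the rest. The procedure was run on simulated counts in which a gene had the same spread in both arms. That run does not cover the unequal spread of the arms seen here. Results for some genes are not reported here.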

Additional observations from a re-analysis of the deposited data

Results flagged for a closer look

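For 6 genes the difference between the IFN and control arms was itself different at day 0 and day 14, by the test of that difference in edgeR with Benjamini-Hochberg adjustment. The IFN effect grew by 5.81 on the log2 scale for Zbp1 (adjusted p = 0.00377), 3.64 for Dhx58 (0.00371), 3.50 for Ifih1 (0.0331), 2.57 for Ddx58 (0.0458), 2.15 for Adar (0.0079) and 1.86 for Eif2ak2 (0.0472). In each of the 6, both IFN day 14 libraries lay above all other libraries of days 0 and 14. The genes were picked by their rise in these same libraries, so this is partly set by that choice. Against control day 14 alone, 28.6% of all genes were higher without overlap. With libraries removed 1 at a time, Dhx58 was called in 12 of 12 fits, Zbp1 in 10, Adar in 8, Ifih1 in 5, Eif2ak2 in 4 and Ddx58 in 3. The Zbp1 value was 4.88 without control day 0 replicate 2, and that of Ifih1 was 4.28 without control day 14 replicate 2. Removal of control day 0 replicate 1 ended the calls of Ddx58 (adjusted p = 0.0792) and Eif2ak2 (0.135), and removal of its replicate 2 that of Ddx58 (0.0577). Groups of 2 libraries are too small for a check of single outlying values within a group.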

How the results depend on the processing

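The 7 members called with IFN at day 14 numbered 6 to 8 under every alternative, and those of the IFN arm from day 0 to day 14 numbered 7 or 8. Same-numbered libraries did not deviate together (correlations of -0.051 to 0.11 over 15 pairs of groups). The replicate block gave 7 members called for IFN at day 14 and 7 at day 21. It gave 4 for the change of the effect from day 0 to day 14, where Ddx58 (adjusted p = 0.0742) and Eif2ak2 (0.0771) were not called. Over all genes the block called 331 at day 14 and 147 at day 21. Scaling by library size only also ended the calls of Ddx58 (edgeR adjusted p = 0.0996) and Eif2ak2 (0.127) for that change of the effect.

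Fitting only the groups compared called 1 member at day 21 and 10 in the IFN arm from day 14 to day 21. Without the filter on low counts, 1 member was called at day 0, 1 in control from day 0 to day 14, 1 in control from day 14 to day 21, 1 in the IFN arm from day 14 to day 21 and 2 for the change of the effect between those days. DESeq2 called 1 member in control from day 0 to day 14, beside 1243 of all genes. For the IFN arm from day 14 to day 21, limma voom called 7 members, beside 2759 of all genes. Without both outlying control libraries, 2 members were called in that step and 1 for the change of the effect. The causes were not tested.

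With each library removed in turn, the members called numbered 6 to 7 at day 14, 3 to 7 at day 21, 0 to 1 in control from day 0 to day 14, 1 to 7 for the change of the effect from day 0 to day 14 and 0 to 1 for that from day 14 to day 21. Calls over all genes moved more: 396 at day 14 became 998 with DESeq2, 1175 without the filter, 657 with only the groups compared, 1647 with limma voom and 2751 without both outlying libraries. At day 21, 172 became 25 with only the groups compared, 635 with DESeq2, 1039 without the filter and 868 without both outlying libraries. With each library removed in turn, the calls over all genes ranged from 114 (without IFN day 14 replicate 2) to 1197 (without control day 21 replicate 2) at day 14 and from 60 (without IFN day 21 replicate 2) to 3865 (without control day 21 replicate 1) at day 21. Other pathway genes called at day 14 numbered 33 with limma voom and 40 without both outlying libraries, against 21, and at day 21 6 with only the groups compared, 24 with DESeq2, 28 without the filter and 8 with limma voom, against 13.

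No called member changed sign. Signs of uncalled log2 values did turn. Without both outlying control libraries they were at day 0 -0.084 for Ifih1, -0.048 for Zbp1, 0.042 for Adar, -0.061 for Tlr3 and 0.029 for Tbk1, and at day 21 -0.086 for Mavs and 0.051 for Tbk1. In control they were -0.028 for Ddx58 (day 0 to 14), -0.53 for Ifih1, 0.21 for Eif2ak2 and 0.18 for Sting1 (day 14 to 21), and the later change of the effect was 0.076 for Ifih1. Scaling by library size only gave 0.025 for Sting1 and 0.13 for Tbk1 at day 21, and -0.096 for Ddx58, -0.19 for Ifih1 and -0.059 for Adar in control from day 14 to 21; it moved the median of all genes to 0.129 and -0.137 in these comparisons, and to 0.123 for the later change of the effect. No filter gave -0.010 for Ddx58 and -0.018 for Ifih1 in that control step.

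With single libraries removed, log2 values at day 0 ranged from -0.077 to 0.78 for Ifih1, -0.041 to 1.43 for Zbp1, -0.19 to 0.048 for Adar, -0.054 to 0.56 for Tlr3 and -0.34 to 0.035 for Tbk1. At day 21 they ranged from -0.087 to 0.16 for Mavs, -0.39 to 0.30 for Sting1 and -0.096 to 0.051 for Tbk1. In control from day 0 to 14 the ranges were -0.28 to 0.53 for Ddx58, -0.26 to 1.03 for Ifih1, -0.25 to 0.30 for Eif2ak2, -0.70 to 0.81 for Zbp1, -0.070 to 0.18 for Adar and -0.45 to 0.83 for Tlr3. From day 14 to 21 they were -0.62 to 0.47 for Ddx58, -0.53 to 0.79 for Ifih1, -0.58 to 0.21 for Eif2ak2, -0.26 to 0.30 for Adar and -0.51 to 0.20 for Sting1. In the IFN arm from day 0 to 14 they were -0.062 to 0.088 for Mavs and -0.076 to 0.22 for Sting1. The change of the effect from day 14 to 21 ranged from -0.92 to 0.18 for Ddx58, -1.24 to 0.075 for Ifih1, -0.20 to 0.051 for Mavs, -0.48 to 0.32 for Eif2ak2 and -1.18 to 0.10 for Tlr3.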

Other observations

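Of the other pathway genes, 7 did not reach the filter and had at most 22 counts in any library. Ifnb1, the gene of interferon beta itself, had 12 counts in all, spread over 3 of the 12 libraries, and at most 8 in 1 library. Tlr7, Tlr8 and Tlr9, the endosomal receptors of single-stranded RNA and unmethylated DNA, had at most 22, 4 and 10 counts in any library. Unc93b1, the chaperone that carries TLR3 and these receptors to endosomes, had at most 8 counts in any library and 42 in all, while Tlr3 itself had up to 2293 counts in an IFN library. Zcchc3, a cofactor of the RNA and DNA sensors, had 6 counts in all.

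The 10 sensors and adaptors together summed to 356.3 ± 10.4, 340.1 ± 66.3 and 338.4 ± 66.5 CPM in control at days 0, 14 and 21 (SD, n = 2). In the IFN arm the sums were 347.2 ± 14.8, 1577 ± 7.56 and 1113 ± 31.4 CPM.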
